A study of Mus musculus with 12 samples.

Results

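The genes described here are 9 genes of epithelial adhesion to the basement membrane: Itga6, Itgb4, Cd151, Plec, Dst, Lama3, Lamb3, Lama5 and Itga3. They were taken by symbol from a count table of 55367 mouse genes. All 9 were among the 17076 genes expressed enough to test, with between 16767 and 120872 counts per library. The table came from RNA sequencing of organoids, cultured 3-dimensional epithelia, grown from the posterior tongue of the mouse. One line came from the circumvallate papilla (CVP) and one from the foliate papilla (FoP), and the comparisons ask how modification of Foxe1, a forkhead transcription factor, changes the transcripts of these epithelia. In each line, 2 clones labelled Foxe1 knock-out were sequenced in duplicate, clones 2.9 and 2.10 in CVP and clones 2.4 and 2.5 in FoP, against wild type organoids of the same line, also in duplicate. This gave 4 clone libraries and 2 wild type libraries per line. The labels give no strain, age, agent or further allele, nor do they give the means by which Foxe1 was modified. The wild type libraries carry no clone name, so genotype and derivation of a clone cannot be told apart. The 2 duplicates of a culture carry the same name, with nothing to show separate derivation, and p-values therefore measure the spread between these libraries, part of which may be technical.

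Hemidesmosomes rivet basal epithelial cells to the basement membrane. Their core is an integrin made of the Itga6 and Itgb4 subunits, which binds laminin outside the cell and, through the plakin linkers plectin (Plec) and dystonin (Dst), holds keratin filaments inside it. The laminin they bind contains the Lama3 and Lamb3 chains. The Lama5 chain belongs to other laminins of epithelial basement membranes, Itga3 pairs with Itgb1 as a laminin receptor outside hemidesmosomes, and Cd151 is a tetraspanin that associates with these integrins. In stratified epithelia such as the tongue, these genes are known for their expression in basal cells.

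The libraries held 59.3 to 73.6 M counts, and in the CVP line the 4 clone libraries (61.6 to 64.5 M) were shallower than the 2 wild type libraries (71.6 and 73.6 M). Foxe1 had 23.7 and 22.7 counts per M counts (CPM, on library sizes scaled by TMM) in clone 2.9 and 7.33 and 8.46 CPM in clone 2.10, against 15.4 and 15.9 CPM in CVP wild type. It had 22.4 and 20.0 CPM in clone 2.4 and 11.2 and 11.5 CPM in clone 2.5, against 16.3 and 16.0 CPM in FoP wild type. The Foxe1 transcript thus did not separate clones from wild type, 1 clone of each line lying above its wild type and 1 below, and the clone libraries are called knock-out by their labels only. Epithelial markers (Epcam, Cdh1, Krt5 and 5 others) were all expressed, summing to 12900 to 15294 CPM in CVP clones against 10048 and 10527 CPM in CVP wild type, and to 11160 to 14012 CPM in FoP clones against 11587 and 11655 CPM in FoP wild type. Krt5 and Krt14 weighed most in these sums, averaging 5919 and 4615 CPM in CVP clones and 3949 and 1782 CPM in CVP wild type. By the edgeR test defined below, 2 of the 8 epithelial markers rose and 4 fell in CVP (median log2 fold change -0.22). In FoP 1 rose and 2 fell. Of all tested genes, 23.5% rose and 22.9% fell in CVP, and 13.5% rose and 15.3% fell in FoP. The 8 fibroblast markers summed to at most 9.86 CPM and the 5 endothelial markers to at most 3.11 CPM in any library. Lum was at 0 in every library, and Ptprc, the defining immune marker, likewise. Of 7 taste markers, Entpd2 made up nearly all of a sum of at most 25.1 CPM, with 16.3 CPM in CVP clones against 21.6 CPM in CVP wild type. The other 6 each averaged at most 2.69 CPM in any group, and Gnat3 was at 0 in 3 of the 4 groups. The 6 skeletal muscle markers summed to at most 1.20 CPM. In bulk RNA, fewer cells of a type and less RNA per cell cannot be told apart.

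In the CVP line the laminin chains Lama3 and Lama5 and the integrin subunit Itga3 fell in the clones, to 0.695-fold, 0.714-fold and 0.643-fold of wild type, while Itgb4 (1.17-fold) and Dst (1.24-fold) rose. In the FoP line the same Lama3, Lama5 and Itga3 fell, to 0.801-fold, 0.651-fold and 0.835-fold, while Itga6 (1.20-fold) and Cd151 (1.11-fold) rose. Lamb3 and Plec passed the test in neither line. A gene was counted as changed at an edgeR quasi-likelihood adjusted p (Benjamini-Hochberg over all 17076 genes) under 0.05. By this rule 5 of the 9 genes changed in CVP, 2 higher and 3 lower, in a comparison that called 46.4% of all tested genes, 23.5% higher and 22.9% lower. In FoP 5 of 9 changed, 2 higher and 3 lower, against 28.8% of all tested genes, 13.5% higher and 15.3% lower. The median log2 fold change of the 9 genes was -0.07 in CVP clones over wild type, beside 0.03 for all tested genes, and -0.01 in FoP, beside 0.01. Their median absolute log2 fold change was 0.22 in CVP, beside 0.37 for all tested genes, and 0.26 in FoP, beside 0.25. The clone and wild type libraries did not overlap for 7 of 9 genes in CVP, where 61.7% of all tested genes did not overlap, and for 7 of 9 in FoP, where 49.7% did not. With so large a share of all genes called, the counts for the 9 genes say little of the group as such, and the values of each gene follow.

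**Figure D1:**
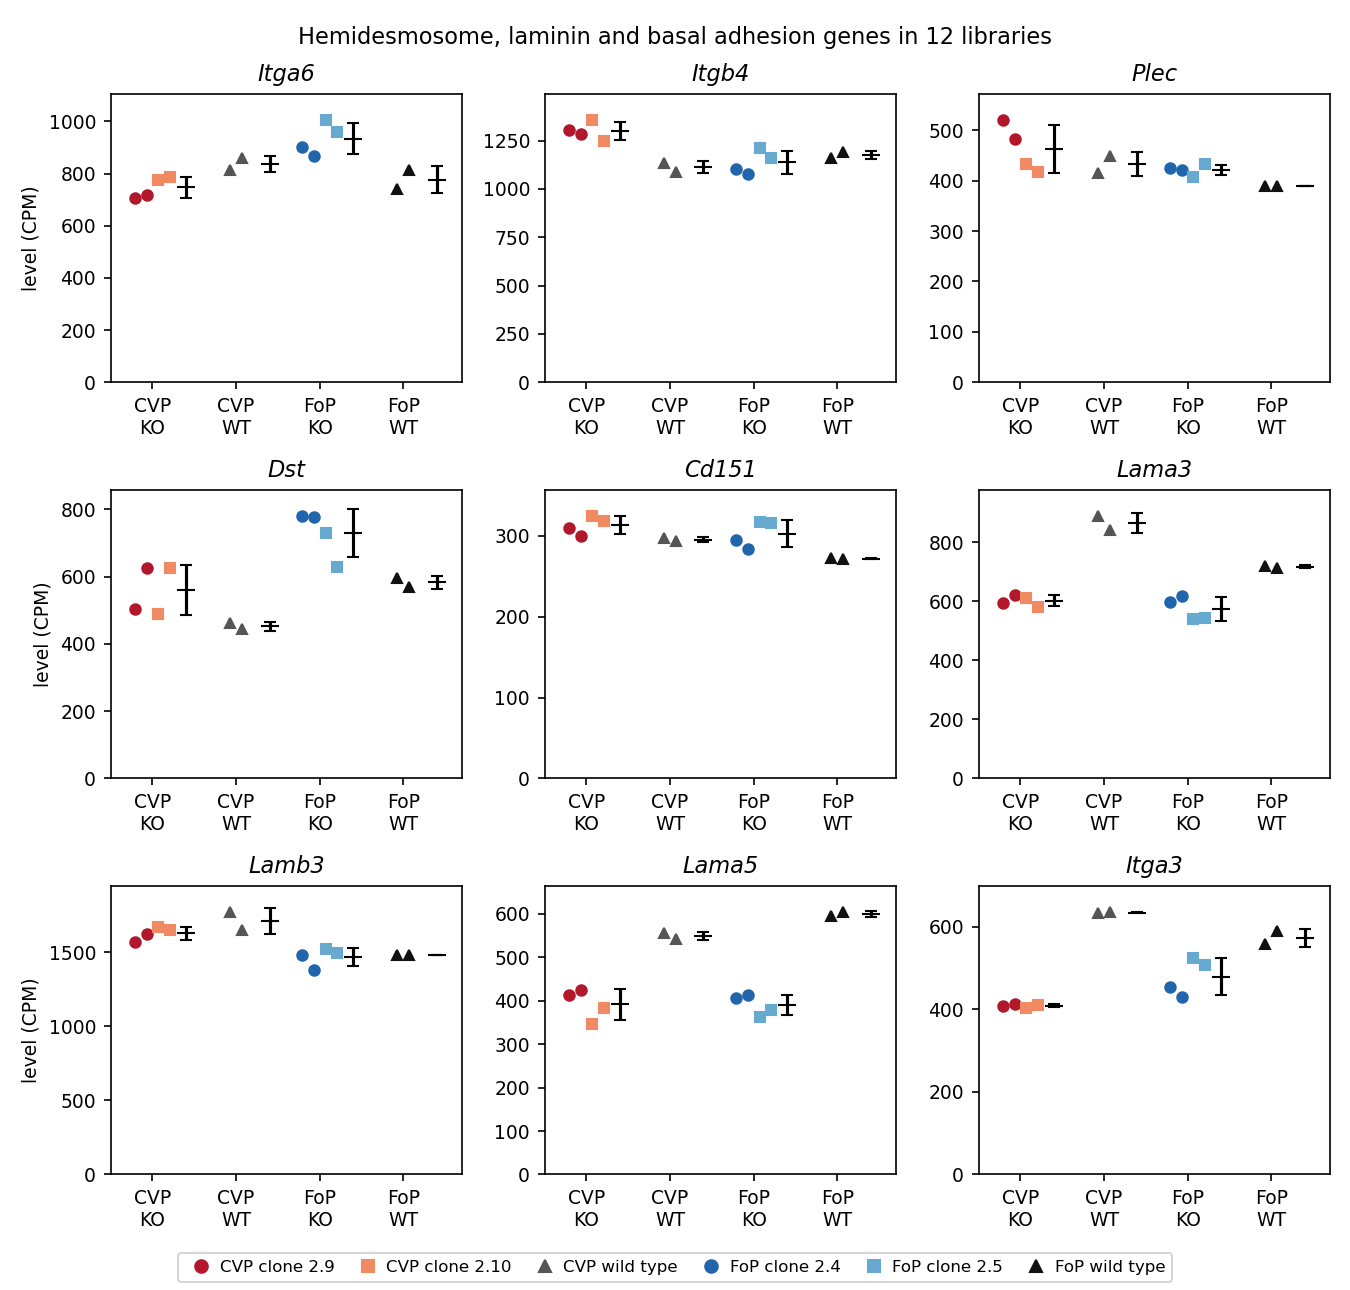
Level of each gene in CPM (counts per M counts of the TMM-scaled library size) in all 12 libraries, from 0 upward; each point is a library, its shape and colour give the culture, and the bar beside each group is the mean ± SD of its libraries (n = 4 for KO, the clones labelled Foxe1 knock-out, and n = 2 for WT). In both lines the 4 KO points of Lama3, Lama5 and Itga3 lie below both WT points, and those of Dst and Cd151 lie above.

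Itga6 encodes the alpha subunit of the hemidesmosomal integrin (chr2:71745616-71858416, GRCm38, plus strand). It had 707 and 719.6 CPM in clone 2.9 and 775 and 787 CPM in clone 2.10, against 814 and 858 CPM in CVP wild type. All 4 CVP clone libraries were below both wild type libraries. The log2 fold change was -0.16 ± 0.07 (SE), which did not pass the test (edgeR adjusted p = 0.0815). This fall of Itga6 passed in 5 of 27 alternative settings, with an edgeR adjusted p down to 0.0169 in a fit of 6 cultures. In FoP the order was the other way round: 902 and 869 CPM in clone 2.4 and 1006 and 958 CPM in clone 2.5, against 741 and 812 CPM in FoP wild type. All 4 FoP clone libraries were above both wild type libraries, and Itga6 rose by 0.27 ± 0.07 on the log2 scale (edgeR adjusted p = 0.0156). The call was lost without the first FoP wild type library (log2 fold change 0.20, adjusted p = 0.184) and without clone 2.5 (0.19, adjusted p = 0.0844). The clone effect, CVP minus FoP, differed by -0.43 ± 0.10 on the log2 scale (edgeR adjusted p = 0.0144), in a comparison of effects between lines that called 15.8% of all tested genes. That difference was not called without the second CVP wild type library (-0.39, adjusted p = 0.0665) or without the first FoP wild type library (-0.36, adjusted p = 0.0908).

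Itgb4 encodes the beta subunit, whose long cytoplasmic tail binds plectin (chr11:115974709-116008412, plus strand). It had 1307 and 1282 CPM in clone 2.9 and 1358 and 1247 CPM in clone 2.10, against 1137 and 1089.6 CPM in CVP wild type. All CVP clone libraries were higher, and Itgb4 rose by 0.22 ± 0.06 (log2; edgeR adjusted p = 0.011). Without the second CVP wild type library the log2 fold change was 0.19 and the adjusted p 0.1. In FoP the groups overlapped, with 1105 and 1075 CPM in clone 2.4 and 1211 and 1160.1 CPM in clone 2.5, against 1162 and 1192 CPM in FoP wild type. The log2 fold change was -0.05 ± 0.06 (edgeR adjusted p = 0.609), and the 95% interval of the fold ran from 0.888 to 1.05. The effects in the 2 lines differed by 0.27 ± 0.09 (CVP minus FoP), which did not pass the test (edgeR adjusted p = 0.0541). This difference of Itgb4 passed in 7 of 26 alternative settings, with an adjusted p down to 0.0134 by the DESeq2 Wald test.

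The 2 subunits form 1 receptor, and the balance of their transcripts differed from wild type in opposite directions in the 2 lines. Itgb4 had 1.58 to 1.85 counts per Itga6 count in the 4 CVP clone libraries, against 1.27 and 1.40 in CVP wild type. It had 1.20 to 1.24 counts per Itga6 count in the 4 FoP clone libraries, against 1.47 and 1.57 in FoP wild type. The ratio was thus above wild type in every CVP clone library and below it in every FoP clone library. It was 1.74 ± 0.112 in CVP clones and 1.33 ± 0.0897 in CVP wild type, and 1.22 ± 0.0146 in FoP clones and 1.52 ± 0.0723 in FoP wild type (SD, n = 4 and 2 in each line). These ratios were chosen after the values were seen and carry no test, and a ratio within a library shows unequal change and not which gene changed.

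**Figure D2:**
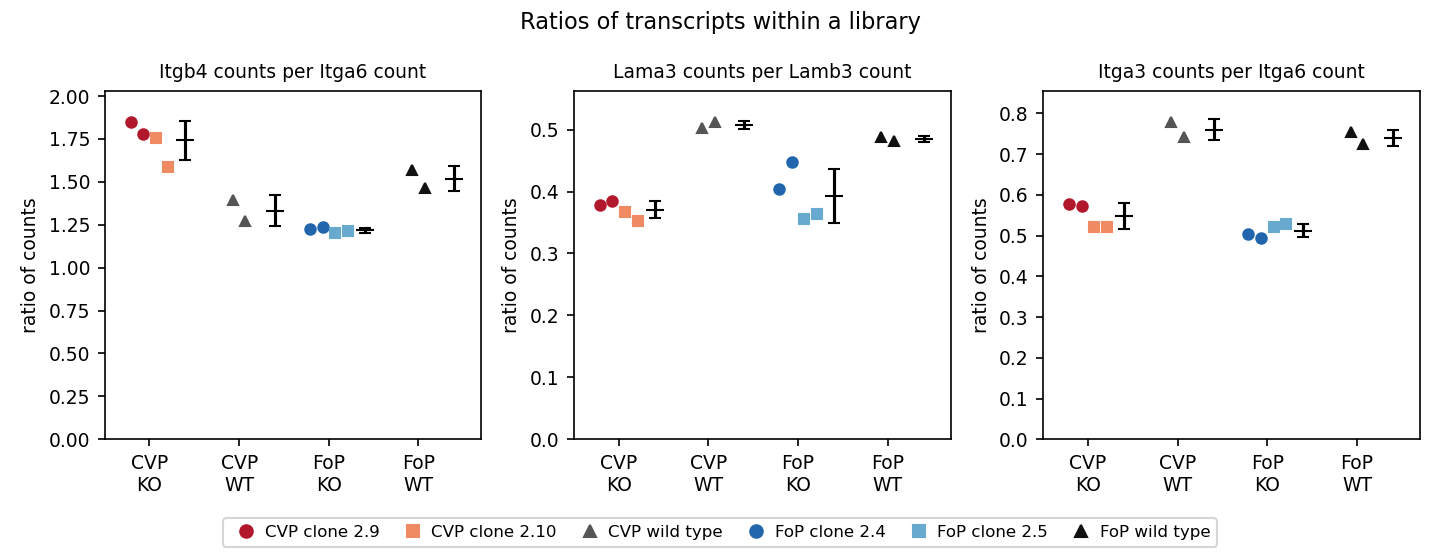
Counts of 1 gene per count of another in the same library, on axes from 0, with a point for each of the 12 libraries and the mean ± SD beside each group (n = 4 for KO, the clones labelled Foxe1 knock-out, and n = 2 for WT). Itgb4 per Itga6 lies above wild type in CVP clones and below it in FoP clones, while Lama3 per Lamb3 and Itga3 per Itga6 lie below wild type in the clones of both lines.

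Cd151, the tetraspanin partner of laminin-binding integrins (chr7:141467392-141471473, plus strand), moved little. It had 310.0, 300.3, 325 and 319 CPM in the 4 CVP clone libraries, against 298 and 293 CPM in CVP wild type. It had 295, 283, 317 and 316 CPM in the 4 FoP clone libraries, against 273 and 271 CPM in FoP wild type. The clones were above wild type in both lines with no overlap. The log2 fold change was 0.08 ± 0.05 in CVP (edgeR adjusted p = 0.23) and 0.16 ± 0.06 in FoP (edgeR adjusted p = 0.0498). The FoP call sat at the threshold and was lost in 16 of 27 alternative settings, 10 of them with 1 library left out (adjusted p of Cd151 between 0.0504 and 0.205).

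Plec (chr15:76170974-76232574, minus strand) and Dst (chr1:33908225-34308661, plus strand) encode the plakins that bridge the integrin to keratin. Both are long genes with many transcripts, 22 for Plec and 20 for Dst in the GENCODE M21 annotation, and the counts per gene do not tell their epithelial, muscle and neuronal forms apart. Plec had 521 and 482 CPM in clone 2.9 and 433 and 417 CPM in clone 2.10, against 416 and 449 CPM in CVP wild type. Clone 2.9 was above wild type and clone 2.10 overlapped it, and the log2 fold change over both clones was 0.10 ± 0.08 (edgeR adjusted p = 0.323). Without clone 2.10 it was 0.21 (adjusted p = 0.0149). In FoP, Plec had 425, 420.0, 407 and 432 CPM in clone libraries, against 389.5 and 389 CPM in wild type. All 4 were above wild type, by 0.11 ± 0.08 (log2; edgeR adjusted p = 0.313). The span of Plec overlaps that of the protein-coding gene Parp10 on the same strand. Whether their exons overlap was not examined, and any reads in a shared part cannot be assigned to 1 of them from these counts.

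Dst had 504 and 624 CPM in clone 2.9 and 489.7 and 626 CPM in clone 2.10, against 462 and 443 CPM in CVP wild type. It had 780.4 and 778 CPM in clone 2.4 and 729 and 627 CPM in clone 2.5, against 596 and 569.7 CPM in FoP wild type. Clones were above wild type in both lines with no overlap. The log2 fold changes were nearly equal, 0.31 ± 0.11 in CVP (edgeR adjusted p = 0.0406) and 0.32 ± 0.11 in FoP (edgeR adjusted p = 0.051), on either side of the threshold. Their difference was -0.01 ± 0.16 (edgeR adjusted p = 0.972; the ratio of the 2 folds has a 95% interval of 0.799 to 1.23). In both CVP clones the first duplicate was lower than the second, and the CVP call was lost in 13 of 27 settings. Without the second duplicate of clone 2.9 or of clone 2.10 the CVP log2 fold change of Dst was 0.25 (adjusted p = 0.0876 and 0.0868), and without the first or the second CVP wild type library the adjusted p was 0.124 and 0.188. The FoP change passed in 15 of 27 settings, with an adjusted p of Dst down to 0.0168 without the second duplicate of clone 2.5.

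Lama3 is the alpha chain of the hemidesmosomal laminin, the one that carries its main integrin-binding end (chr18:12333819-12583013, plus strand). It had 594, 623, 613 and 580.5 CPM in the 4 CVP clone libraries, against 890.1 and 843 CPM in CVP wild type. The 4 clone libraries lay close together and far below both wild type libraries, and the log2 fold change was -0.52 ± 0.06 (edgeR adjusted p = 3.15e-05). In FoP it had 599 and 618 CPM in clone 2.4 and 539 and 543 CPM in clone 2.5, against 721 and 713 CPM in wild type. It fell there by 0.32 ± 0.06 on the log2 scale (edgeR adjusted p = 0.00243), again with no overlap. The effects differed by -0.20 ± 0.09 (CVP minus FoP), which did not pass the test (edgeR adjusted p = 0.151).

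Lamb3 encodes the beta chain of the same laminin (chr1:193207699-193343878, plus strand). It had 1569, 1619, 1668 and 1647 CPM in CVP clone libraries, against 1770.1 and 1646 CPM in CVP wild type. It had 1481, 1378, 1517 and 1495 CPM in FoP clone libraries, against 1478 and 1482 CPM in FoP wild type. The groups overlapped in both lines. The 95% interval of the fold was 0.877 to 1.03 in CVP (edgeR adjusted p = 0.36) and 0.914 to 1.08 in FoP (edgeR adjusted p = 0.911). Reads of Lamb3 may include some of the protein-coding genes Hsd11b1 and G0s2, whose spans overlap its own on the other strand. Whether reads were counted by strand is not stated in the sources used here. On the same strand the span of Lamb3 overlaps 4930570N18Rik and Gm37691.

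The alpha chain of this laminin was thus lower in the clones of both lines while its beta chain overlapped wild type. Per Lamb3 count, Lama3 had 0.352 to 0.385 counts in CVP clone libraries, against 0.503 and 0.512 in CVP wild type, and 0.355 to 0.448 in FoP clone libraries, against 0.481 and 0.488 in FoP wild type. The ratio was 0.371 ± 0.0141 in CVP clones and 0.507 ± 0.00636 in CVP wild type, and 0.393 ± 0.0428 in FoP clones and 0.485 ± 0.00448 in FoP wild type (SD, n = 4 and 2 in each line). In both lines every clone library had less Lama3 per Lamb3 than either wild type library, a description chosen after the values were seen.

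Lama5, the alpha chain of the laminins most widespread in epithelial basement membranes (chr2:180176373-180225859, minus strand), had 413 and 424 CPM in clone 2.9 and 346 and 382 CPM in clone 2.10, against 555 and 542 CPM in CVP wild type. It had 406 and 413 CPM in clone 2.4 and 362 and 379 CPM in clone 2.5, against 594 and 604 CPM in FoP wild type. All clone libraries of both lines were below all wild type libraries. Lama5 fell by 0.49 ± 0.08 on the log2 scale in CVP (edgeR adjusted p = 0.00022) and by 0.62 ± 0.08 in FoP (edgeR adjusted p = 1e-04), and was the member with the largest fall in FoP. The 2 effects differed by 0.13 ± 0.11 (CVP minus FoP; edgeR adjusted p = 0.461).

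Itga3, whose product pairs with the Itgb1 subunit (chr11:95044474-95076801, minus strand), had 408, 412, 404 and 410.3 CPM in CVP clone libraries, against 634 and 636 CPM in CVP wild type. The 2 clones gave nearly the same level, and Itga3 showed the largest change of the 9 genes in CVP, -0.64 ± 0.07 (log2; edgeR adjusted p = 1.61e-05). In FoP it had 455 and 429 CPM in clone 2.4 and 525 and 507 CPM in clone 2.5, against 559 and 589 CPM in wild type. It fell there by 0.26 ± 0.07 on the log2 scale (edgeR adjusted p = 0.0146). The FoP call was lost without the first FoP wild type library (-0.30, adjusted p = 0.0517), without the second (-0.22, adjusted p = 0.139) and without clone 2.4 (-0.15, adjusted p = 0.0639). The clone effect on Itga3, CVP minus FoP, was -0.38 ± 0.10 (edgeR adjusted p = 0.0247), a larger fall in CVP. This difference was not called when any 1 of the 4 wild type libraries was left out (adjusted p of Itga3 between 0.0626 and 0.117). Its partner Itgb1 averaged 1255 ± 50.6 CPM in CVP clones and 1259 ± 4.49 CPM in CVP wild type, and 1269 ± 37.4 CPM in FoP clones and 1242 ± 36.7 CPM in FoP wild type (SD, n = 4 and 2; edgeR adjusted p = 0.953 and 0.74). Itga3 had 0.521 to 0.578 counts per Itga6 count in CVP clone libraries, against 0.741 and 0.779 in CVP wild type, and 0.494 to 0.530 in FoP clone libraries, against 0.725 and 0.754 in FoP wild type.

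**Figure D3:**
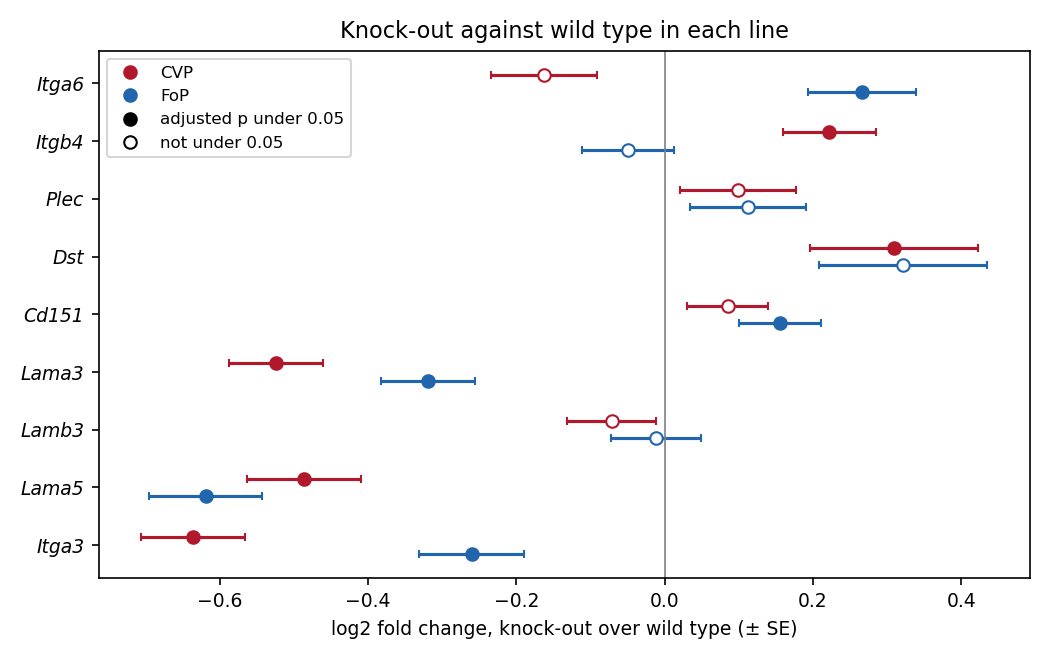
Log2 fold change of clones labelled knock-out over wild type (± SE from edgeR) for each gene in CVP (red) and FoP (blue), with filled points where the adjusted p was under 0.05. Lama3, Lama5 and Itga3 are left of 0 and filled in both lines, and Itga6 lies on opposite sides of 0 in CVP (-0.16) and FoP (0.27).

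Promoter windows are shown for the 2 genes that fell in both lines and have an entry in the RefSeq table used (GRCm38.p6, 250 bases before to 50 bases after the start of transcription), with that of Lamb3, which passed the test in neither line, for comparison. Capitals mark GC boxes (GGGCGG) and a loose forkhead pattern, TGTTTNC, in which N is any base. Each was searched on both strands, with no overlapping matches. A match to the loose pattern need not be a forkhead site. Lama5 is at chr2:180225810-180226109 (minus strand), Itga3 at chr11:95076665-95076964 (minus strand) and Lamb3 at chr1:193301744-193302043 (plus strand).
Lama5: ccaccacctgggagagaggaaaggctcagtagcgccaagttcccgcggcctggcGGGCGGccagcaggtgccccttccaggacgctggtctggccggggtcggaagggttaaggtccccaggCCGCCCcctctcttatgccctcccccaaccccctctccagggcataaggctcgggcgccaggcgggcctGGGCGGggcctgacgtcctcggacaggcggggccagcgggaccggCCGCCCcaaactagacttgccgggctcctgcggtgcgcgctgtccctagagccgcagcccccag
Itga3: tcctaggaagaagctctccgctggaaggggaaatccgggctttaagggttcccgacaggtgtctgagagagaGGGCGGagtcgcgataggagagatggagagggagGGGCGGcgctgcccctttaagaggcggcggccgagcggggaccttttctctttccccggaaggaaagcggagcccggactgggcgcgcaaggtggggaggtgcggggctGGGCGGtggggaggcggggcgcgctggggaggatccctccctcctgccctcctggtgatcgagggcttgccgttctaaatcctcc
Lamb3: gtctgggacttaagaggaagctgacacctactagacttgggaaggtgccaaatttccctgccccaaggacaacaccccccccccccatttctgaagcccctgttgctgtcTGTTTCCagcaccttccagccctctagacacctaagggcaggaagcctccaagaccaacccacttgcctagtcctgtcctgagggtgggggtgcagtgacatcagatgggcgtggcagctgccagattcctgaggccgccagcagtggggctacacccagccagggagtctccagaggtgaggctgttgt
The table has 1 window for Lama5 and 2 each for Itga3 and Lamb3, of which 1 is printed. The Lama5 window had 4 GC boxes and the Itga3 window 3, where 35.7% of all 32851 windows held at least 1. Neither of these 2 windows held the forkhead pattern. The printed Lamb3 window had no GC box and 1 match to the forkhead pattern, TGTTTCC, at -140 from the start, where 20.5% of windows held 1 or more. The match thus depends on the window. Of the windows not printed, that of Itga3 (chr11:95069149-95069448) held 1 GC box and 1 match to the forkhead pattern, at -209. That of Lamb3 (chr1:193301993-193302292) held neither. The GC content of the printed windows was 72.7% for Lama5, 66.7% for Itga3 and 59.3% for Lamb3. A match is a description of the letters, and binding was not measured. The table has entries also for Dst and Cd151, and Itga6, Itgb4, Plec and Lama3 are named only.

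Between the 2 clones of a line, with 2 libraries each, 1 of the 9 genes passed the test in each line. That is no smaller a share than among all tested genes. Clone 2.10 differed from clone 2.9 in 1 of 9, Plec (0.848-fold, log2 -0.24 ± 0.06, edgeR adjusted p = 0.0293), where 5.42% of all tested genes differed. The Plec call was lost without the first duplicate of clone 2.9 (adjusted p = 0.243), the second of clone 2.10 (0.0988) or either FoP wild type library (0.053). Clone 2.5 differed from clone 2.4 in 1 of 9, Itga3 (1.17-fold, log2 0.22 ± 0.05, edgeR adjusted p = 0.0232), where 7.26% of all tested genes differed. This call was lost when any 1 of the 4 clone libraries was left out (adjusted p of Itga3 between 0.0545 and 0.189). Lama5 lay near the threshold between the CVP clones (log2 -0.20, edgeR adjusted p = 0.0606) and passed in 5 of 22 alternative settings. So did Lama3 between the FoP clones (log2 -0.17, edgeR adjusted p = 0.0931), in 2 of 22. Against the CVP wild type libraries that both share, 6 of 9 genes changed in clone 2.9, where 47.1% of all tested genes did, and 5 of 9 in clone 2.10, where 49.6% did. Against the shared FoP wild type, 5 of 9 changed in clone 2.4 (32.4% of all tested genes) and 5 of 9 in clone 2.5 (34.4%).

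Lama3 was lower in each clone taken alone, with log2 fold changes of -0.51 in clone 2.9, -0.54 in clone 2.10, -0.24 in clone 2.4 and -0.41 in clone 2.5. Lama5 was at -0.39, -0.59, -0.55 and -0.69 in the same order of clones. Itga3 was at -0.63, -0.64, -0.38 and -0.15. All 12 of these passed the test (edgeR adjusted p between 3.93e-07 and 0.041), the weakest being Itga3 in clone 2.5. That last call was lost with any 1 of 7 libraries left out: either duplicate of clone 2.5, either wild type library of FoP or of CVP, or the first duplicate of clone 2.4 (adjusted p of Itga3 between 0.0515 and 0.249). That of Lama3 in clone 2.4 was lost without the first duplicate of that clone (adjusted p = 0.0587). Itga6 was at -0.23 in clone 2.9 (edgeR adjusted p = 0.00683) and -0.10 in clone 2.10 (0.2), and at 0.19 in clone 2.4 (0.0286) and 0.34 in clone 2.5 (0.000709). Itgb4 rose by the same amount in both CVP clones, 0.22 and 0.23, and was at -0.11 and 0.01 in clones 2.4 and 2.5. The calls of Itga6 and Itgb4 in clone 2.9 were lost without the second CVP wild type library (adjusted p = 0.062 for Itga6 and 0.0722 for Itgb4), and that of Itgb4 also without the first duplicate of the clone (0.0549). In clone 2.10 the Itgb4 call was lost without its first duplicate (0.0609) or the second CVP wild type library (0.0574). In clone 2.4 the Itga6 call was lost without either of its duplicates (0.159 and 0.0586) or the first FoP wild type library (0.26). Of the linkers and the tetraspanin, Plec rose in clone 2.9 (log2 0.21, edgeR adjusted p = 0.00849), Dst in clone 2.4 (0.42, 0.0257) and Cd151 in clone 2.5 (0.22, 0.00295) and, at the threshold, in clone 2.10 (0.12, 0.0486). The Plec call was lost without the first duplicate of clone 2.9 (0.0997) or the first CVP wild type library (0.102), the Dst call without any 1 of the 4 libraries compared (0.0755 to 0.12), and the Cd151 call of clone 2.10 in 20 of 23 settings (0.0518 to 0.164). The Foxe1 transcript was above wild type in clones 2.9 and 2.4 and below it in clones 2.10 and 2.5, and its part in the values of the 9 genes was not tested.

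**Figure D4:**
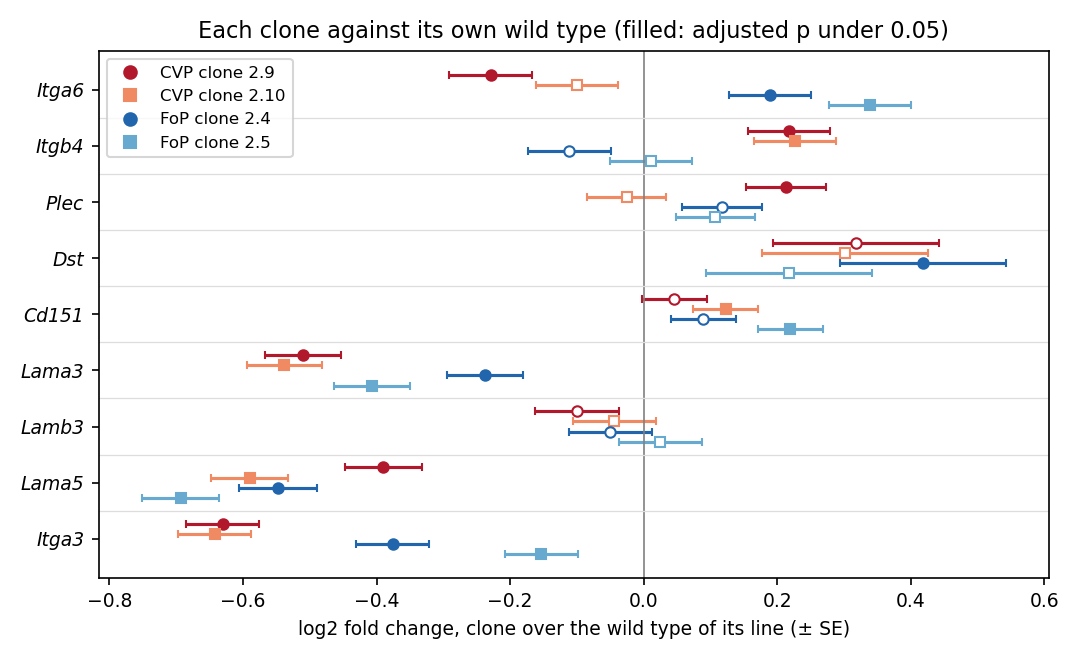
Log2 fold change of each clone over the wild type of its line (± SE from edgeR, fit of 6 cultures), with filled points where the adjusted p was under 0.05; the 2 clones of a line share their wild type libraries. Lama3, Lama5 and Itga3 are left of 0 and filled in all 4 clones, whereas Plec is filled in clone 2.9 and open in the other 3.

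Between the wild types, Lama3 was lower in FoP, with 721 and 713 CPM in FoP wild type against 890.1 and 843 CPM in CVP wild type (log2 fold change -0.27 ± 0.07, edgeR adjusted p = 0.0459). It was the only 1 of 9 genes to pass, where 6.68% of all tested genes did, and the call was lost in 10 of 26 settings, among them each wild type library left out (adjusted p of Lama3 between 0.126 and 0.249). Dst was higher in FoP wild type (596 and 569.7 CPM) than in CVP wild type (462 and 443 CPM) without overlap, but did not pass (log2 0.36 ± 0.13, edgeR adjusted p = 0.114). The other 7 genes lay between -0.21 (Lamb3, edgeR adjusted p = 0.0963) and 0.13 (Lama5, 0.445) on the log2 scale.

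Levels of different genes were compared per length, as CPM per kilobase of merged exons (RPKM). In CVP clones Lamb3 was highest (245.9 ± 6.46 RPKM, SD, n = 4), followed by Itgb4 (185 ± 6.65), Cd151 (114 ± 3.91), Itga6 (82.8 ± 4.37), Itga3 (71.6 ± 0.640), Lama3 (56.1 ± 1.77), Lama5 (34.4 ± 3.05), Plec (25.6 ± 2.61) and Dst (13.6 ± 1.81). The ranges of neighbours in that order did not overlap. In CVP wild type Itga3 stood in the third place (111 ± 0.333 RPKM, n = 2), ahead of Cd151 (108 ± 1.15) and Itga6 (92.7 ± 3.48). FoP clones had the order of CVP clones, with Cd151 (111 ± 6.05 RPKM) and Itga6 (103 ± 6.71) overlapping in range. In FoP wild type Itga3 (100.5 ± 3.79) and Cd151 (99.2 ± 0.358) overlapped at the same places, ahead of Itga6 (86.1 ± 5.61), and the other 6 places were the same in all 4 groups. The order depended in part on the length used. With the longest transcript or the longest coding sequence in place of merged exons, Itga3 came after Lamb3, Itgb4, Itga6 and Cd151 in all 4 groups, so that its change of place between clones and wild type was seen with merged exons alone. Itga6 and Cd151 changed places too: with the longest coding sequence Cd151 came second in every group (413 RPKM in CVP clones, beside 238 for Itgb4), and with the longest transcript Itga6 came ahead of Cd151 in every group (173 beside 168 RPKM in CVP clones). With all 3 lengths Lamb3 was highest and Plec and Dst were the 2 lowest in every group, Dst coming ahead of Plec in FoP clones with the other 2 lengths.

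**Figure D5:**
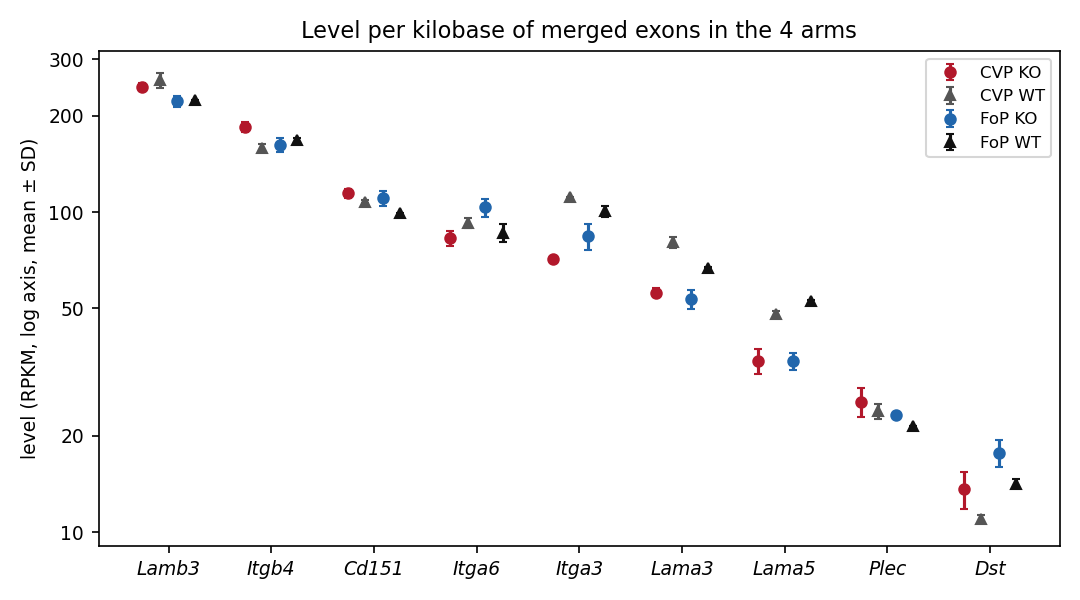
Level of each gene in RPKM (CPM per kilobase of merged exons) on a log axis, as mean ± SD over libraries (n = 4 for KO, the clones labelled Foxe1 knock-out, and n = 2 for WT), ordered by the level in CVP clones. Lamb3 is highest and Dst lowest in all 4 groups, and Itga3, Lama3 and Lama5 are lower in the clones of both lines.

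Other genes of the adhesion machinery were taken from lists that hold none of the 9 genes. The counts of these lists stand beside the shares of all tested genes. In CVP 23.5% of all tested genes rose and 22.9% fell, and in FoP 13.5% rose and 15.3% fell. Their median log2 fold change was 0.03 in CVP and 0.01 in FoP. Of 4 hemidesmosome and keratin partners, 3 rose and 1 fell in CVP clones, and 1 rose in FoP clones. Col17a1, the transmembrane collagen of hemidesmosomes, rose in both, averaging 3431 ± 46.2 CPM in CVP clones and 1977 ± 86.6 CPM in CVP wild type (log2 0.80 ± 0.06, edgeR adjusted p = 1.62e-06). It averaged 3426 ± 99.3 CPM in FoP clones and 2243 ± 1.86 CPM in FoP wild type (log2 0.61 ± 0.06, edgeR adjusted p = 2.64e-05). The keratin Krt14 rose by 1.37 ± 0.17 and Krt15 fell by 1.40 ± 0.39 in CVP (edgeR adjusted p = 4.42e-05 and 0.0159), and neither passed in FoP (0.20 and -0.40). The median of the list was 0.69 in CVP, beside 0.03 for all tested genes, and 0.15 in FoP, beside 0.01.

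Among other laminin chains, Lamc1, the gamma chain that Lama5 pairs with, fell in both lines, by 0.58 ± 0.05 in CVP (edgeR adjusted p = 4.63e-06) and by 0.32 ± 0.05 in FoP (edgeR adjusted p = 0.000729). Lamb1 rose by 0.33 ± 0.08 in CVP (edgeR adjusted p = 0.00514) and 0.45 ± 0.08 in FoP (0.00138). Lama4 rose by 0.33 and Lamb2 fell by 0.29 in CVP, and neither passed in FoP (0.12 and -0.07).

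Of 22 other integrin subunits, 19 were tested; 4 rose and 4 fell in CVP (median -0.0049) and 6 rose and 2 fell in FoP (median 0.03). Itgb3 rose by 1.51 ± 0.23 in CVP and 1.15 ± 0.23 in FoP (edgeR adjusted p = 0.000356 and 0.00381), and Itgb8 by 0.80 and 0.72. The collagen receptor subunits Itga2 and Itga1 fell by 0.83 ± 0.15 and 0.66 ± 0.23 in CVP and did not pass in FoP (-0.17 and -0.11). The fibronectin receptor subunit Itga5 fell by 0.24 ± 0.06 in FoP and did not pass in CVP (-0.08). Of 4 other laminin receptors, 1 rose and 1 fell in CVP (median 0.06), and 3 rose in FoP (median 0.37). Dag1, which encodes dystroglycan, rose by 0.60 ± 0.10 in CVP and 0.50 ± 0.10 in FoP (edgeR adjusted p = 0.000351 and 0.00245). The syndecan Sdc4 fell by 0.60 ± 0.07 in CVP and did not pass in FoP (-0.10). Bcam, a receptor of the Lama5 chain, rose by 0.65 ± 0.12 in FoP (edgeR adjusted p = 0.00194) and did not pass in CVP (0.05).

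Of 16 tested tetraspanins other than Cd151, 4 rose and 9 fell in CVP (median -0.24), and 3 rose and 3 fell in FoP (median 0.02). In CVP Tspan6 and Tspan7 rose by 0.81 and 0.64 and Tspan1 and Tspan15 fell by 1.73 and 1.48; in FoP these 4 did not pass (0.24, 0.23, -0.23 and -0.73). Tspan3 rose by 0.33 in CVP and 0.35 in FoP, Tspan13 fell by 0.80 in CVP and 0.47 in FoP, and Tspan14 fell by 0.48 in CVP and 0.20 in FoP. Cd63 rose by 0.22 in FoP and was at 0.01 in CVP (edgeR adjusted p = 0.852). Of 5 other plakins, 2 rose and 2 fell in CVP (median -0.26) and 1 rose in FoP (median 0.10). The desmosomal plakin Dsp rose in both lines, by 0.67 ± 0.07 and 0.37 ± 0.07 (edgeR adjusted p = 1.53e-05 and 0.00213). In CVP Macf1, which links microtubules and actin, rose by 0.63, and the plakins Eppk1 and Evpl fell by 1.04 and 0.55; in FoP these 3 did not pass (0.15, -0.46 and -0.14).

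Of 19 basement membrane genes, 16 were tested; 7 rose and 3 fell in CVP (median 0.73) and 2 rose and 2 fell in FoP (median -0.03). Nid1, whose product links laminin to collagen IV, fell by 3.53 ± 0.64 in CVP and 2.18 ± 0.63 in FoP (edgeR adjusted p = 0.00162 and 0.0288), and Npnt, an integrin ligand, fell by 0.67 in both. Ntn4 and Agrn, whose products bind laminin, rose in both lines, Ntn4 by 0.89 in CVP and 1.12 in FoP (edgeR adjusted p = 0.000633 and 0.000363) and Agrn by 0.59 in CVP and 0.30 in FoP (4.85e-05 and 0.0102). Sparc rose by 1.15 and the collagen IV chain Col4a4 by 0.99 in CVP, and neither passed in FoP (0.47 and -0.09). Of 6 proteases known to process laminins or to act at the basement membrane, 2 rose and 2 fell in CVP (median -0.12) and 2 rose in FoP (median 0.25). Bmp1 rose by 0.86 ± 0.14 in CVP and 0.42 ± 0.13 in FoP, and the plasminogen activators Plat and Plau fell by 2.20 ± 0.60 and 0.46 ± 0.13 in CVP and did not pass in FoP (1.33 and -0.27). Of 21 focal adhesion genes, 2 rose and 8 fell in each line (median -0.05 in CVP and -0.12 in FoP). Fermt1, an activator of integrins in epithelia, rose by 0.55 in CVP and 0.35 in FoP, and Tns1 and Pxn fell by 2.90 and 0.45 in CVP and by 0.93 and 0.31 in FoP. Tln2 rose by 1.03 in CVP (0.12 in FoP, not passing) and Tns3 by 0.57 in FoP (0.17 in CVP, not passing).

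Markers of some cell states differed between clones and wild type while others overlapped, and their part in the values of the 9 genes was not tested. Of all tested genes, 23.5% rose and 22.9% fell in CVP, and 13.5% rose and 15.3% fell in FoP. The 5 markers of basal lingual epithelium, the layer that makes hemidesmosomes, summed to 9747 to 12455 CPM in CVP clone libraries against 6240 and 6533 CPM in CVP wild type, and to 8401 to 10794 CPM in FoP clone libraries against 8355 and 8363 CPM in FoP wild type. Krt5 and Krt14 weighed most in these sums too, averaging 5919 and 4615 CPM in CVP clones. In CVP 2 of the 5 markers rose and 3 fell (median log2 fold change -0.26), and in FoP 1 rose (median 0.20). The one that rose in FoP was Trp63, which encodes p63, a transcription factor of basal epithelial cells, by 0.41 (edgeR adjusted p = 0.00228). In CVP Trp63 fell by 0.34 (edgeR adjusted p = 0.00352), as did Krt15 by 1.40 and Sox2 by 0.26, while Krt5 and Krt14 rose by 0.58 and 1.37. Trp63 was singled out after its values were seen. Of 8 gland secretory markers, 8 fell in CVP and 7 in FoP; they summed to 32.1 to 94.5 CPM in CVP clones against 424 and 589 CPM in CVP wild type, and to 17.8 to 45.3 CPM in FoP clones against 78.2 and 103 CPM in FoP wild type. Of 8 suprabasal markers, 1 rose and 6 fell in CVP and 3 fell in FoP, with sums of 21.1 to 28.7 CPM in CVP clones against 85.0 and 109 CPM in CVP wild type, and 43.4 to 72.9 CPM in FoP clones against 133 and 156 CPM in FoP wild type. The 6 immune markers summed to 10.2 to 18.1 CPM in CVP clones against 103 and 108 CPM in CVP wild type. In FoP they summed to 38.0 to 66.7 CPM in clones against 65.4 and 69.3 CPM in wild type. Ptprc, Cd3e and Adgre1 were at 0 in the wild type libraries of both lines, so the wild type sums came from the rest of the list. Of the 3 immune markers tested, 3 fell in CVP and 2 in FoP. The 6 myoepithelial markers, which belong to another cell that makes hemidesmosomes, summed to 78.3 to 289 CPM in CVP clones against 63.9 and 81.7 CPM in CVP wild type, and to 63.2 to 186 CPM in FoP clones against 42.1 and 66.8 CPM in FoP wild type. Clone and wild type sums overlapped in both lines, and 1 of the 6 markers rose and 0 fell in each. The 6 nerve and glia markers summed to 56.5 to 73.1 CPM in CVP clones against 63.4 and 67.9 CPM in CVP wild type. In FoP they summed to 48.1 to 68.2 CPM in clones against 52.6 and 57.0 CPM in wild type. Of the 5 tested, 3 rose and 0 fell in CVP (median log2 fold change 1.47), and 0 were called in FoP (median 0.06).

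The genes whose levels followed each of the 9 most closely were found by Pearson's r of log2 CPM over the 6 culture means, among 10627 genes whose mean log2 CPM was 2 or more. They were picked for the highest r among that many genes over 6 points, of which 3 share a line, and carry no p. The closest was Rpl3-ps1 for Itga6 (r = 0.998), a pseudogene whose reads may belong to its parent gene, followed by Gas6 (r = 0.993). Plxnd1 was closest to Itgb4 (r = 0.991), Apc to Plec (r = 0.969), Grk5 to Dst (r = 0.981) and Pcdhb14 to Cd151 (r = 0.993). Supt6 was closest to Lama3 (r = 0.996), Abhd14b to Lamb3 (r = 0.982), Iws1 to Lama5 (r = 0.997) and Tmprss4 to Itga3 (r = 0.998). Among the pairs of the 9 genes, r ran from -0.886 (Dst with Lamb3) to 0.853 (Lama3 with Lama5), with Cd151 and Lama5 at -0.841. The 2 subunits Itga6 and Itgb4 gave r = -0.582, and the chains Lama3 and Lamb3 gave r = 0.454. These values restate the levels above over the same 6 cultures.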

How the data were processed

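The values used were the authors' deposited table of raw counts, 55367 genes in 12 columns whose names match the sample titles. Per the labels' protocols, poly(A) RNA was prepared with a Qiagen kit and sequenced from TruSeq stranded mRNA libraries. The submitters' processing notes name STAR, featureCounts and hg38, with no versions. The symbols are mouse, and 96.1% matched exactly 1 gene of GENCODE M21 (GRCm38), which gave positions and lengths. Counts were fitted in 4 arms (line by label) with edgeR 4.0.16 in R 4.3.3: filterByExpr (17076 genes), TMM scaling, robust quasi-likelihood tests, 8 residual degrees of freedom, adjusted over all genes at 0.05. A fit of 6 cultures gave the clone comparisons. Standard errors are the fold change over the root of F. Intervals cover the spread between libraries only. Genes named outside the 9 were, per list and line, up to 2 called genes in each direction with the largest change among those with a mean log2 CPM of 2 or more, with Foxe1. Itgb1, as a partner chain, and Trp63 were named after their values were seen. 1 gene of the lists, with the counts that rest on it, is not reported here. The 9 genes, lists and tests were chosen with earlier results of these data known. Alternatives used DESeq2 1.42.0 and limma 3.58.1 among others. The fits were tested on simulated data.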

Additional observations from a re-analysis of the deposited data

Results flagged for a closer look

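The effect of the clones labelled knock-out differed between the lines for 2 of the 9 genes by the edgeR test of the difference itself. For Itga6 the log2 fold change, CVP minus FoP, was -0.43 (-0.16 in CVP and 0.27 in FoP, edgeR adjusted p = 0.0144). All 4 CVP clone libraries were below, and all 4 FoP clone libraries above, both wild type libraries of their line. For Itga3 the difference was -0.38 (-0.64 in CVP and -0.26 in FoP, edgeR adjusted p = 0.0247), with all 8 clone libraries below their wild types. Of all tested genes 15.8% passed this test. With duplicates summed per culture the adjusted p was 0.305 for Itga6 and 0.357 for Itga3. No group of 4 libraries of a member had a library standing apart by Dixon's test, and groups of 2 were not tested.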

How the results depend on the processing

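Each result was recomputed in 22 to 27 alternative settings: DESeq2 size factors or upper quartile scaling, no filter or a stricter one (1 CPM in 4 libraries), counts halved, 6 cultures, each line fitted alone, counts of duplicates added up (leaving 2 residual degrees of freedom), the duplicate number as a replicate block, the DESeq2 Wald test, voom from limma with a culture block, and each library or clone left out. No called log2 fold change of the 9 genes reversed. Of 2178 values, 2004 stayed on their side of the threshold, 117 lost and 57 gained a call. Lama3, Lama5 and Itga3 in CVP were called in all 27 (adjusted p at most 0.0299 for Lama3, 0.0486 for Lama5 and 0.0245 for Itga3). In FoP, Lama3 and Lama5 lost the call when duplicates were summed (adjusted p = 0.147 and 0.0693). Same-number deviations of the duplicates correlated weakly between cultures (r between -0.056 and 0.114), the highest r being that of the 2 CVP clones. A duplicate effect shared by those 2 clones alone was not tested. The replicate block ended the calls of Dst in CVP (adjusted p = 0.0525), Cd151 in FoP (0.0621) and Lama3 between wild types (0.0673). Between wild types this left 0 of 9 called (3 at an unadjusted p under 0.05). The block also ended the calls of Cd151 in clone 2.10 (0.0561) and Itga3 in clone 2.5 (0.0545).

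Of the 9 genes called, CVP clones over wild type had 3 with summed duplicates and 3 to 5 with a library left out; FoP had 0 (3 unadjusted) and 2 to 6. The difference between lines had 4 with 6 cultures, 4 without clone 2.5, 1 with voom, 0 with summed duplicates (1 unadjusted) and 0 to 3 with a library left out. FoP over CVP wild type had 2 with 6 cultures, 3 with DESeq2, 0 with voom (3 unadjusted), 0 with summed duplicates (1 unadjusted), 0 without clone 2.9 (4 unadjusted) and 0 to 1 with a library left out. Clone 2.10 over 2.9 had 2 with upper quartile scaling, no filter, halved counts or DESeq2, 0 with each line alone (2 unadjusted), and 0 to 1 with a library left out. Clone 2.5 over 2.4 had 2 with each line alone or DESeq2 and 0 to 1 with a library left out. With a library left out, clone 2.10 over wild type had 3 to 5 and clone 2.4 over wild type 2 to 5, and in the settings that keep every library both had 4 to 6. Over all genes, summed duplicates called 3420 in CVP (7929 as reported), 372 in FoP (4921), 0 for the difference (2692, with 2663 unadjusted) and 0 between wild types (1140, with 1643 unadjusted). Leaving out a wild type library called as few as 5238 in CVP, 2668 in FoP, 1103 for the difference and 101 between wild types. The 6 cultures called 4424 and 2788 in the last 2, voom 1457 and 512, and DESeq2 2030 between wild types. The causes were not tested, apart from the fewer samples of some settings. The difference and the wild type comparison have no value with each line fitted alone. Precision is limited by the 2 wild type libraries of each line. Low counts of 2 (20289 values) and 4 (10030) outnumbered those of 3 (6626), and counts of 6 (6134) outnumbered those of 5 (3995). The cause was not tested, and whether each count stands for a separate fragment cannot be told from these values.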
